A study of Mus musculus with 9 samples.

Results

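Cyclic nucleotide phosphodiesterases were followed in the splenic B cells of 2 mouse leukemia models and of wildtype mice. The 8 genes, chosen by name, were Pde2a, Pde3b, Pde4a, Pde4b, Pde4d, Pde7a, Pde7b and Pde8a, out of 22137 genes quantified, and 7 of them passed the filter on low counts among 11161 genes tested. Phosphodiesterases end cyclic nucleotide signals by hydrolysing cAMP or cGMP. In B lymphocytes, cAMP made by adenylyl cyclases downstream of Gs-coupled receptors acts through protein kinase A and the EPAC exchange factors, and the PDE4 and PDE7 enzymes are known as cAMP-specific phosphodiesterases of lymphoid cells. Inhibitors of PDE4 raise cAMP and are known to promote apoptosis of human chronic lymphocytic leukemia cells in culture.

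RNA-sequencing covered 9 mice of strain C57/BL6NTac with 1 library per mouse and 3 mice per group. Eµ-MTCP1 mice carried human MTCP1 and Eµ-TCL1 mice carried human TCL1, both expressed in B cells from an immunoglobulin promoter and the Eµ enhancer, while the wildtype mice were littermates without the MTCP1 transgene. The transgenic mice were age-matched and had a high burden of a leukemia resembling chronic lymphocytic leukemia, and ages of single mice were not given in the sources used here. The Eµ-MTCP1 mice all came from founder line Z36, in which the transgene lies in an intron of Fam168a on chromosome 7, the chromosome that also holds Pde2a, Pde3b and Pde8a. B cells were enriched by negative selection of a spleen suspension, so that leukemic and residual normal B cells were sequenced together. Between 6443748 and 7985870 reads per library were assigned to coding sequences, and 1 library, wildtype replicate 2, was read on another lane than the other 8.

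On the deposited log2-like scale, on which a gene without reads stands at 5.85, human MTCP1 lay between 11.1 and 12.3 in the Eµ-MTCP1 mice and at 6.19 or lower elsewhere, and human TCL1A lay between 14.9 and 15.6 in the Eµ-TCL1 mice and at 6.96 or lower elsewhere. The B-cell marker list was abundant in every group and none of its 7 genes was called in any comparison. Follicular and marginal zone markers summed to 2780 to 3521 CPM (reads scaled to library size) in wildtype mice and to 197 to 475 CPM in the 6 leukemic mice, with 5 of 6 genes lower in Eµ-MTCP1 and 4 of 6 lower in Eµ-TCL1. B-1 cell markers, among them Cd5, summed to 32.0 to 58.4 CPM in wildtype and to 473 to 717 CPM in leukemic mice, with 4 of 5 genes higher in each model. Among other cell types, the T-cell list summed to 35.8 to 162 CPM. It spanned 51.5 to 162 CPM in Eµ-TCL1 and 72.6 to 109 CPM in wildtype mice, and none of its 4 tested genes was called. Cd4 was at or near 0 in every mouse. In Eµ-TCL1 mice Cd3d ran from 0.28 to 8.73, Cd3e from 0.28 to 7.07 and Cd8a from 0.28 to 2.49 CPM. The highest wildtype values were 1.21, 1.67 and 0 CPM. Myeloid markers spanned 378 to 4749 CPM without separating the groups, with Cd68 the 1 of 12 genes higher in each model.

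Of the 8 genes, Pde4d differed between leukemic and wildtype mice. In wildtype mice, reads of Pde4d came mainly from transcripts Pde4d-206 and Pde4d-207, which begin deep inside the gene at chr13:109903102 and chr13:109903106 on the plus strand (GRCm38), after 96.7% of the annotated length of Pde4d. Short PDE4 transcripts of this kind are made from internal promoters, and their proteins lack part of the regulatory region found at the start of long forms. The first 150 coding bases of Pde4d-207 are shown because this transcript had coding reads in wildtype and none in leukemic mice. Beside them stand those of Pde4d-205, a longer form with coding reads in 1 Eµ-MTCP1 mouse and in wildtype replicate 2. Those of Pde4b-203 are also shown, the transcript that carried nearly all coding reads of Pde4b in every mouse. Capitals mark the leading bases of which no 15-base word occurs in a transcript of the same gene with another start, as read from the GENCODE M21 transcripts.
Pde4d-207: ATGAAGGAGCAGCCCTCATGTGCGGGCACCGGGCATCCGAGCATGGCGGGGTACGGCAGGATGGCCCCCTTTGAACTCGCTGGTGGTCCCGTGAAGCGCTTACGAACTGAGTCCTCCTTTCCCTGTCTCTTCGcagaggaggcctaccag
Pde4d-205: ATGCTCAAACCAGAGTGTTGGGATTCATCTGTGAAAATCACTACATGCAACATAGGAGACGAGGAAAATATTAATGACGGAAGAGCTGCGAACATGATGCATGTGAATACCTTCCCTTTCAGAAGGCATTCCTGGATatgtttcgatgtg
Pde4b-203: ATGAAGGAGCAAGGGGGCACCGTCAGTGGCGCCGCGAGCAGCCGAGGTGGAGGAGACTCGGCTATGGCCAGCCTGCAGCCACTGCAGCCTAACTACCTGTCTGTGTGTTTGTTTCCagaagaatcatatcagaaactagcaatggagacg
The capitals cover 133 bases of Pde4d-207, 137 of Pde4d-205 and 116 of Pde4b-203, so each start had coding sequence of its own to which reads could be assigned. Pde4d-207 and Pde4b-203, short forms of different genes, began with the same 11 coding bases.

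The comparison of each leukemia with wildtype asked which phosphodiesterases moved with transformation, and the comparison of the leukemias with each other asked whether MTCP1 and TCL1 differed in this respect. With edgeR's quasi-likelihood test on all 9 libraries, 1 of the 7 tested genes was lower in Eµ-MTCP1 than in wildtype at an adjusted p under 0.05, where 4.01% of all genes were lower and 5.48% higher. In Eµ-TCL1 against wildtype 1 of 7 was lower, where 4.13% of all genes were lower and 5.03% higher. That gene was Pde4d in both comparisons, and both used the same wildtype mice. Between Eµ-TCL1 and Eµ-MTCP1 none of the 7 was called by edgeR or, on the same reads, by DESeq2, and edgeR called 0.00896% of all genes. An unadjusted p under 0.05 (edgeR) was found for 2 of the 7, beside 713 of all 11161 genes. The median log2 fold change of the 7 genes was -0.26 in Eµ-MTCP1 and -0.32 in Eµ-TCL1 against wildtype, beside -0.02 and -0.01 over all genes. Group values did not overlap for 1 of 7 genes in Eµ-MTCP1 against wildtype, for 2 of 7 in Eµ-TCL1 against wildtype and for 1 of 7 between the leukemias, beside 29.9%, 32.6% and 11.0% of all genes.

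**Figure D1:**
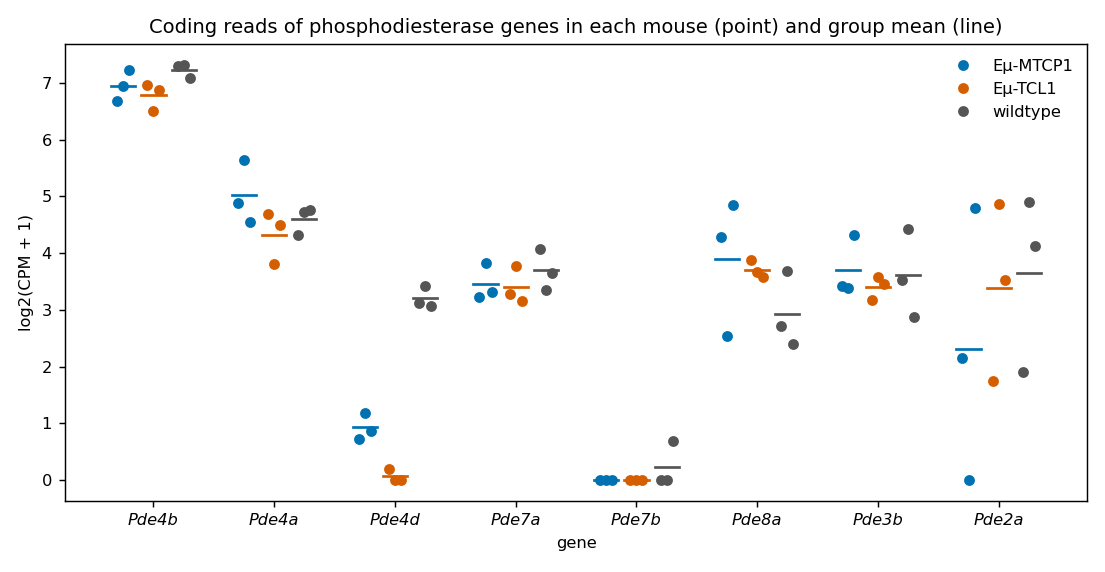
Expression of the 8 genes as log2(CPM + 1) of reads on coding sequences, with 1 point per mouse and a line at the mean of each group of 3 mice. Pde4d lay higher in the 3 wildtype mice than in any leukemic mouse, Pde4b was the gene with most reads in all 9 mice, and Pde2a was spread widely within each group.

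Pde4d (ENSMUSG00000021699.17, chr13:108449948-109953461, plus strand) encodes a cAMP-specific phosphodiesterase of the PDE4 subfamily. Coding reads of Pde4d numbered 49, 89 and 62 in wildtype replicates 1, 2 and 3. They numbered 5, 9 and 4 in Eµ-MTCP1 replicates 1, 2 and 3 and 0, 0 and 1 in the Eµ-TCL1 replicates. Both leukemia groups lay below every wildtype mouse, and every Eµ-MTCP1 mouse lay above every Eµ-TCL1 mouse. The mean was 8.26 ± 1.23 CPM (SD, n = 3) in wildtype and 0.922 ± 0.322 CPM (SD, n = 3) in Eµ-MTCP1, a ratio of 8.97. The fitted log2 fold change in Eµ-MTCP1 was -3.13 (SE 0.63, 95% interval -4.53 to -1.74, adjusted p = 0.012, edgeR), with all 3 leukemic mice lower. In Eµ-TCL1 the fitted log2 fold change was -7.06 (SE 0.86, adjusted p = 0.00081, edgeR), a value that depends on how a count of 0 is handled. Set against 3 reads per Eµ-TCL1 library, the level that a count of 0 cannot be told from, the Eµ-TCL1 level of Pde4d was at least 20.6-fold lower. In this bulk measurement, fewer cells that express Pde4d and less Pde4d RNA per cell cannot be told apart. Follicular and marginal zone markers were lower and B-1 markers higher in the same 6 mice, and dendritic markers summed to 14.5 to 31.8 CPM in wildtype and 2.10 to 11.8 CPM in leukemic mice. The natural killer cell list summed to 18.4 to 43.7 CPM in wildtype, 1.16 to 11.5 CPM in Eµ-MTCP1 and 2.53 to 39.8 CPM in Eµ-TCL1 mice. The part of these cell types in the Pde4d result was not tested.

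Whole counts per gene, which also take in untranslated regions and were made by the authors from genome alignments, gave Pde4d 105, 190 and 127 reads in wildtype replicates 1 to 3, 29, 13 and 5 in Eµ-MTCP1 and 0, 0 and 2 in Eµ-TCL1. Every leukemic mouse again lay below every wildtype mouse, with 29 reads the highest leukemic and 105 the lowest wildtype value. Such separation was not counted over all genes in whole counts, here or for Pde7b and Pde2a below. In coding reads, 29.9% of all genes separated Eµ-MTCP1 from wildtype and 32.6% separated Eµ-TCL1 from wildtype. Their log2 fold change was -2.86 in Eµ-MTCP1 (SE 0.69, adjusted p = 0.027, edgeR). Set against 3 reads and scaled by library size alone, unlike the coding value, the level was at least 47.1-fold lower in Eµ-TCL1. With these counts, 4.21% of all genes were lower in Eµ-MTCP1 and 4.19% in Eµ-TCL1. The Eµ-TCL1 call held in all 30 alternative settings, and the Eµ-MTCP1 call in 22 of 30. With coding reads the Eµ-MTCP1 call was lost without Eµ-MTCP1 replicate 3 (adjusted p = 0.053, edgeR), without wildtype replicate 2, the library on the other lane (adjusted p = 0.068, edgeR), and without wildtype replicate 3 (adjusted p = 0.051, edgeR), while the log2 fold change stayed between -3.48 and -2.94. With whole counts it was lost without Eµ-MTCP1 replicate 2 (adjusted p = 0.065, edgeR) or 3 (adjusted p = 0.079, edgeR) and without wildtype replicate 1, 2 or 3 (adjusted p = 0.057, 0.102 and 0.081, edgeR), and the log2 fold change ranged from -3.66 to -2.46. In the authors' filtered table of well covered genes, Pde4d had an entry in 3 of 3 wildtype, 1 of 3 Eµ-MTCP1 and 1 of 3 Eµ-TCL1 libraries.

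The Pde4d difference from wildtype lay mainly in 1 pair of transcripts. Reads on the coding sequences of Pde4d-206 and Pde4d-207 numbered 49.0, 75.9 and 59.5 in wildtype replicates 1 to 3 and 0 in each of the 6 leukemic mice. On whole transcripts the same pair held 70.1, 92.2 and 89.8 reads in wildtype, 1.38, 1.25 and 0 in Eµ-MTCP1 and 0 in all 3 Eµ-TCL1 mice. The few reads left in Eµ-MTCP1 mice fell on other transcripts, with 5 coding reads on Pde4d-201 in replicate 1, 9 on Pde4d-205 in replicate 2 and 4 on Pde4d-204 in replicate 3. No transcript of Pde4d was thus shared by the 3 Eµ-MTCP1 mice in the coding reads. On whole transcripts, the 28 reads of Eµ-MTCP1 replicate 1 included 13.9 on Pde4d-211 and 9.80 on Pde4d-212, which do not reach the 3' end of the gene. Pde4d-211 also had 1 read in each of the other 2 Eµ-MTCP1 mice, so on whole transcripts it had reads in all 3. Wildtype replicates 1 to 3 also had reads outside the pair. They numbered 0, 13.1 and 2.51 on coding sequences and 11.9, 51.8 and 18.2 on whole transcripts. With so few reads, assignment among overlapping transcripts is uncertain in the Eµ-MTCP1 mice. Pde4d also overlaps 5 small or pseudogene annotations, among them Rps3a3, Mir582 and Mir1904, so single reads in it are uncertain.

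**Figure D2:**
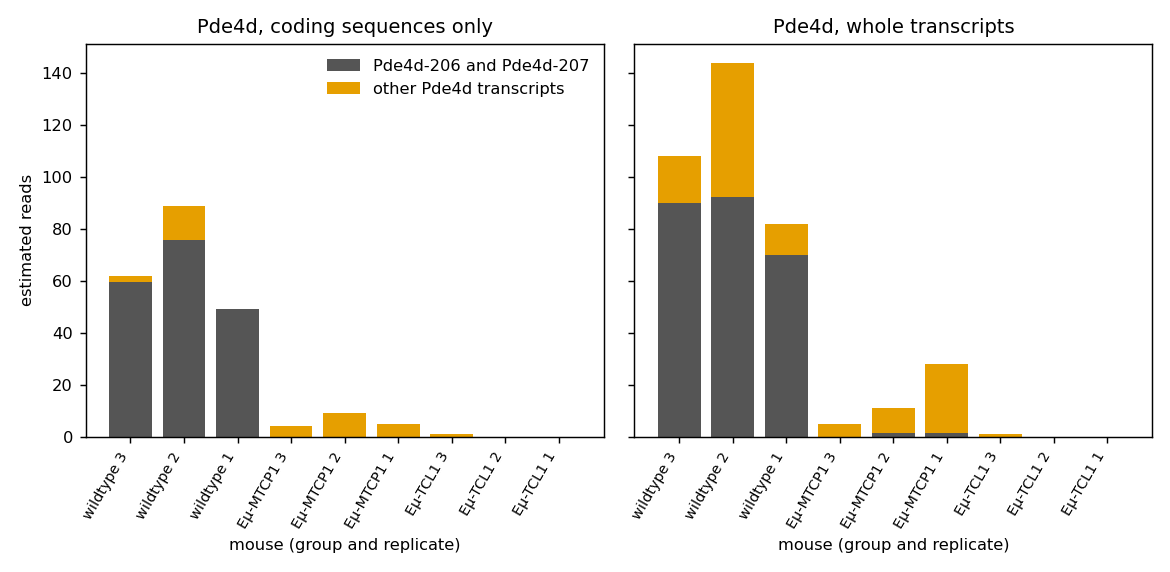
Estimated reads of Pde4d in each mouse, split into the pair of transcripts with an internal start (Pde4d-206 and Pde4d-207, dark) and all others (orange), for coding sequences on the left and whole transcripts on the right. The dark part was 49.0 coding reads or more in each wildtype mouse and 0 in each leukemic mouse.

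Between the leukemias, the log2 fold change of Pde4d in Eµ-TCL1 over Eµ-MTCP1 was -3.93 (95% interval -5.94 to -1.92), with an unadjusted p of 0.00135 and an adjusted p of 0.375 (edgeR). This fitted value also depends on how a count of 0 is handled. It ran from -7.13 to -3.44 when any one mouse was left out of the coding reads or whole counts, with the lowest value without Eµ-TCL1 replicate 3, and limma on the deposited normalized values gave -0.35 (adjusted p = 0.864). Set against 3 reads per Eµ-TCL1 library, the mean of Pde4d in Eµ-MTCP1 was 2.29-fold higher on coding reads. On whole counts scaled by library size alone it was 5.68-fold higher. These ratios leave out the spread among Eµ-MTCP1 mice, whose whole counts were 29, 13 and 5 in replicates 1 to 3. The leukemia groups did not overlap, and all 6 values lay at 9 coding reads or fewer. On the whole counts per gene the same difference passed with DESeq2 (adjusted p = 0.0185) and without the filter on low counts (adjusted p = 0.0127, edgeR), and it did not pass with edgeR and the filter (adjusted p = 0.31). The difference rested on 0 to 29 reads per mouse in that table.

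The 3 genes whose profile over the 9 libraries was nearest to that of Pde4d, by the root mean square difference of centred log2 CPM among 8965 genes with a mean of at least 5 CPM, were Zfp608 at 0.73, Icosl at 0.80 and Rasgef1b at 0.83. Icosl, the ligand of the T-cell costimulator ICOS, had 678, 950 and 853 reads in wildtype replicates 1 to 3 and 25 to 78 reads in leukemic mice. Rasgef1b had 1513, 2130 and 2150 reads in wildtype replicates 1 to 3, 340 to 522 across Eµ-MTCP1 mice and 203 to 261 across Eµ-TCL1 mice. All 3 genes were lower in both leukemias, which follows from their choice by likeness to Pde4d.

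Pde4b (ENSMUSG00000028525.16, chr4:102087543-102607259, plus strand), the PDE4 gene known to be induced in activated leukocytes, was the phosphodiesterase with most RNA in every mouse. Its coding reads numbered 889, 1459 and 1262 in wildtype replicates 1 to 3, 899, 860 and 617 in Eµ-MTCP1 and 830, 734 and 897 in Eµ-TCL1. After scaling these were 135, 159 and 157 CPM in wildtype, 149, 122 and 101 CPM in Eµ-MTCP1 and 116, 90.3 and 124 CPM in Eµ-TCL1. All Eµ-TCL1 mice lay below all wildtype mice, whereas Eµ-MTCP1 replicate 1 lay within the wildtype range. The log2 fold change was -0.27 in Eµ-MTCP1 (95% interval -0.71 to 0.17, adjusted p = 0.423, edgeR) and -0.44 in Eµ-TCL1 (95% interval -0.88 to -0.0029, adjusted p = 0.197, edgeR). Neither passed the adjusted test in any of 30 alternative settings. Between the leukemias the difference was -0.17 (95% interval -0.61 to 0.27). Pde4b-203, the short form shown above, carried 97.1% to 99.5% of the coding reads of Pde4b in the 9 mice, and its share was 0.0167 points higher in transgenic than in wildtype mice (exact permutation test, two-sided, 6 against 3 mice, p = 0.976, adjusted p = 0.976). This near-total share holds for coding reads only. On whole transcripts Pde4b-203 held 699 to 1892 reads per mouse and the longer Pde4b-207 held 285 to 827.

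Pde4a (ENSMUSG00000032177.17, chr9:21165714-21213248, plus strand), another cAMP-specific gene of the subfamily, had 173, 235 and 152 coding reads in wildtype replicates 1 to 3, 136, 345 and 174 in Eµ-MTCP1 and 153, 105 and 178 in Eµ-TCL1. The groups overlapped, and the highest value was that of Eµ-MTCP1 replicate 2. The log2 fold change was 0.51 in Eµ-MTCP1 (95% interval -0.24 to 1.26, adjusted p = 0.382, edgeR) and -0.26 in Eµ-TCL1 (95% interval -1.01 to 0.49, adjusted p = 0.687, edgeR). Eµ-TCL1 against Eµ-MTCP1 gave -0.77 (95% interval -1.52 to -0.01) with an unadjusted p of 0.0476 and an adjusted p of 0.772 (edgeR). This difference ran from -0.99 to -0.38 when any one mouse was left out of the coding reads or whole counts. The Eµ-MTCP1 value against wildtype then ran from 0.09 to 0.70. The share of Pde4a-201 among the coding reads of Pde4a ran from 3.65% to 89.9% over the mice and was 55.2% ± 35.1 (SD, n = 3) in wildtype, 38.7% ± 34.1 in Eµ-MTCP1 and 31.6% ± 17.5 in Eµ-TCL1 (exact permutation test of transgenic against wildtype, two-sided, p = 0.333, adjusted p = 0.976), a spread that includes uncertain assignment of reads among overlapping transcripts.

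**Figure D3:**
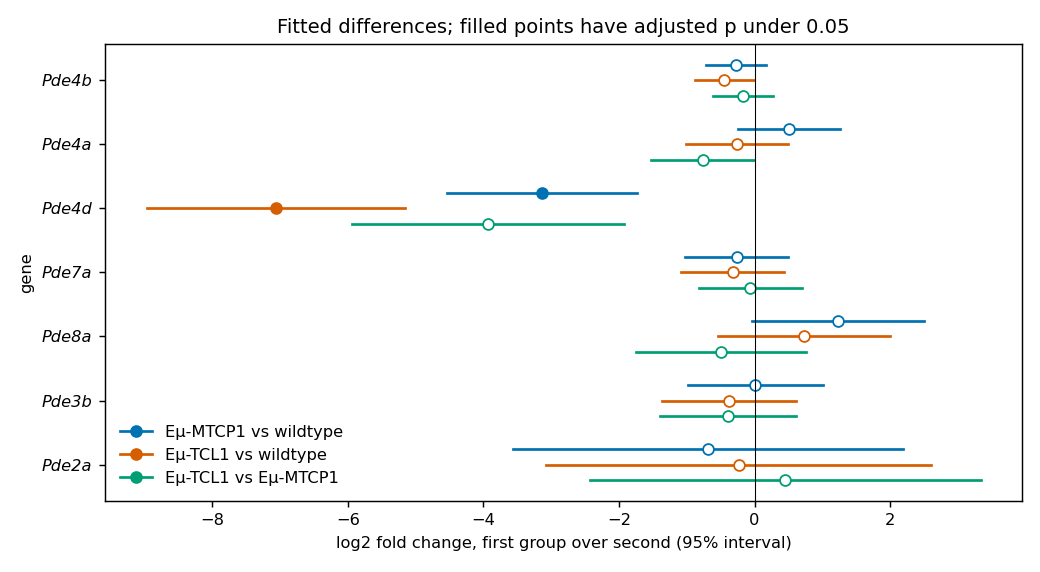
Fitted log2 fold changes with 95% intervals for the 7 genes tested in the 3 comparisons, from edgeR's quasi-likelihood fit of coding reads, with filled points for an adjusted p under 0.05. Both comparisons of a leukemia with wildtype have a filled point at Pde4d, and the other genes have open points in all 3 comparisons.

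Pde7a (ENSMUSG00000069094.12, chr3:19223108-19311322, minus strand) encodes a cAMP-specific phosphodiesterase abundant in lymphocytes. Its coding reads numbered 76, 85 and 128 in wildtype replicates 1 to 3, 54, 93 and 51 in Eµ-MTCP1 and 56, 103 and 63 in Eµ-TCL1. Whole counts per gene were several times higher, at 504, 545 and 1061 in wildtype, 430, 690 and 602 in Eµ-MTCP1 and 505, 706 and 425 in Eµ-TCL1. The groups overlapped in both tables. The log2 fold changes were -0.26 in Eµ-MTCP1 (95% interval -1.02 to 0.50, adjusted p = 0.678, edgeR) and -0.32 in Eµ-TCL1 (95% interval -1.08 to 0.44, adjusted p = 0.609, edgeR). On the whole counts the former was 0.01, so no direction is given for Pde7a. The antisense gene Gm16093 overlaps it, and the strand setting of the counter was not given in the sources used here. Pde7a-202 held 21.7% to 100% of the coding reads, and the transgenic mean exceeded the wildtype mean by 15.5 points, which was not detectable against this spread (exact permutation test, two-sided, p = 0.75, adjusted p = 0.976). No other gene had the 50 coding reads in every mouse that this test required, and the smallest p that 6 against 3 mice allow is 0.0119.

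Pde7b (ENSMUSG00000019990.15, chr10:20398004-20725078, minus strand), the related cAMP-specific gene, was close to absent. It had 4 coding reads in wildtype replicate 1 and 0 in the other 8 mice and did not enter the test. Whole counts per gene were 11, 4 and 8 in wildtype replicates 1 to 3, 0, 1 and 0 in Eµ-MTCP1 and 0, 1 and 1 in Eµ-TCL1. Every wildtype mouse lay above every leukemic mouse, but at 3 reads or fewer the leukemic level cannot be told from 0. Without a filter on low counts these counts gave log2 fold changes of -3.94 (adjusted p = 0.139, edgeR) and -3.26 (adjusted p = 0.215, edgeR), neither of which passed.

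Pde8a (ENSMUSG00000025584.17, chr7:81213596-81334533, plus strand) encodes a high-affinity cAMP-specific phosphodiesterase. Its coding reads numbered 28, 109 and 45 in wildtype replicates 1 to 3, 169, 34 and 113 in Eµ-MTCP1 and 78, 95 and 99 in Eµ-TCL1. Wildtype replicate 2 and Eµ-MTCP1 replicate 2 each stood away from the other mice of their group, and the groups overlapped. The log2 fold change was 1.23 in Eµ-MTCP1 (95% interval -0.04 to 2.51, adjusted p = 0.214, edgeR) and 0.74 in Eµ-TCL1 (95% interval -0.53 to 2.005, adjusted p = 0.466, edgeR). Without Eµ-MTCP1 replicate 2 the former rose to 1.64 and passed (adjusted p = 0.0484, edgeR), as it did on the whole counts, so that 1 mouse decided this call. Between the leukemias the difference was -0.50 (95% interval -1.75 to 0.76).

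Pde3b (ENSMUSG00000030671.9, chr7:114415281-114539251, plus strand) encodes a dual-specificity phosphodiesterase that is inhibited by cGMP. Its coding reads numbered 42, 189 and 85 in wildtype replicates 1 to 3, 114, 66 and 59 in Eµ-MTCP1 and 71, 89 and 58 in Eµ-TCL1. The wildtype mice alone spanned the values of all 6 leukemic mice. The log2 fold change was 0.01 in Eµ-MTCP1 (95% interval -0.98 to 1.01, adjusted p = 0.991, edgeR) and -0.38 in Eµ-TCL1 (95% interval -1.37 to 0.62, adjusted p = 0.652, edgeR).

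Pde2a (ENSMUSG00000110195.1, chr7:101421691-101512827, plus strand) encodes a phosphodiesterase of both nucleotides that is stimulated by cGMP. The gene overlaps Gm45837 (ENSMUSG00000030653.17, chr7:101410886-101512819, plus strand), and its values are uncertain because reads can be assigned to either. Coding reads of Pde2a numbered 108, 267 and 22 in wildtype replicates 1 to 3, 161, 0 and 21 in Eµ-MTCP1 and 75, 228 and 17 in Eµ-TCL1. Values were spread widely within each group, the groups overlapped, and the log2 fold change was -0.69 in Eµ-MTCP1 (95% interval -3.57 to 2.20, adjusted p = 0.776, edgeR) and -0.23 in Eµ-TCL1 (95% interval -3.08 to 2.61, adjusted p = 0.933, edgeR). Summing Pde2a with Gm45837 gave 320, 387 and 230 reads in wildtype, 247, 61 and 86 in Eµ-MTCP1 and 167, 248 and 168 in Eµ-TCL1. The log2 fold change of the sum was -0.90 in Eµ-MTCP1 (adjusted p = 0.267, edgeR) and -0.62 in Eµ-TCL1 (adjusted p = 0.454, edgeR).

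The whole counts per gene for Pde2a were low. They were 27, 41 and 18 in wildtype replicates 1 to 3, 9, 4 and 3 in Eµ-MTCP1 and 14, 10 and 10 in Eµ-TCL1, with every leukemic mouse below every wildtype mouse. The log2 fold change was -2.12 in Eµ-MTCP1 (95% interval -3.48 to -0.76), which missed the threshold with edgeR (adjusted p = 0.055) and passed with DESeq2 (adjusted p = 0.035). In Eµ-TCL1 it was -1.18 (95% interval -2.47 to 0.11, adjusted p = 0.238, edgeR). These counts were far below the estimated reads of Pde2a on whole transcripts, at 411, 161 and 313 in wildtype replicates 1 to 3. On that estimate the log2 fold change was -1.40 in Eµ-MTCP1 (adjusted p = 0.472, edgeR) and -1.68 in Eµ-TCL1 (adjusted p = 0.399, edgeR).

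Per transcript length, as TPM (reads scaled to transcript length and library size) on the standard reference of whole transcripts, the 23 phosphodiesterase genes listed summed to 79.5, 110 and 93.5 TPM in wildtype replicates 1 to 3, to 78.3, 66.7 and 59.0 TPM in Eµ-MTCP1 and to 63.3, 57.4 and 65.5 TPM in Eµ-TCL1. Each leukemic sum lay below each wildtype sum on this reference. On coding sequences the groups overlapped, with 60.5 TPM in Eµ-MTCP1 replicate 1 and 58.8 TPM in wildtype replicate 1, and neither sum was tested. Pde4b made up 53.4% ± 1.96 (SD, n = 3) of it in wildtype, 46.0% ± 1.81 in Eµ-MTCP1 and 51.3% ± 5.11 in Eµ-TCL1. Pde7a came next in 7 of the 9 mice. In order of mean wildtype share, Pde7a held 12.4%, Pde2a 8.16%, Pde1b 6.86%, Pde4a 6.73%, Pde3b 3.98%, Pde4d 3.33%, Pde8a 2.06%, Pde4c 1.39% and Pde7b 0.548%. On coding sequences the order after Pde4b differed, with Pde4a at 8.65%, Pde4d at 7.97%, Pde7a at 6.16%, Pde1b at 5.18% and Pde2a at 4.13% of the wildtype sum. The coding share of Pde4d had an SD of 7.43 points, and in wildtype replicate 3 it included 1 read on the 147-base coding sequence of Pde4d-206. Pde2a, Pde1b and Pde4a, likewise Pde3b and Pde4d, and likewise Pde8a and Pde4c, did not differ from their neighbour in the whole-transcript order beyond its SD. Pde4d held 0.949% ± 0.844 in Eµ-MTCP1 and 0.0217% ± 0.0376 in Eµ-TCL1. Outside the 8 genes, 2 of 15 listed phosphodiesterase genes were tested, Pde1b, a calmodulin-stimulated enzyme with 53 to 116 coding reads, and Pde4c, and neither was called in any comparison.

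**Figure D4:**
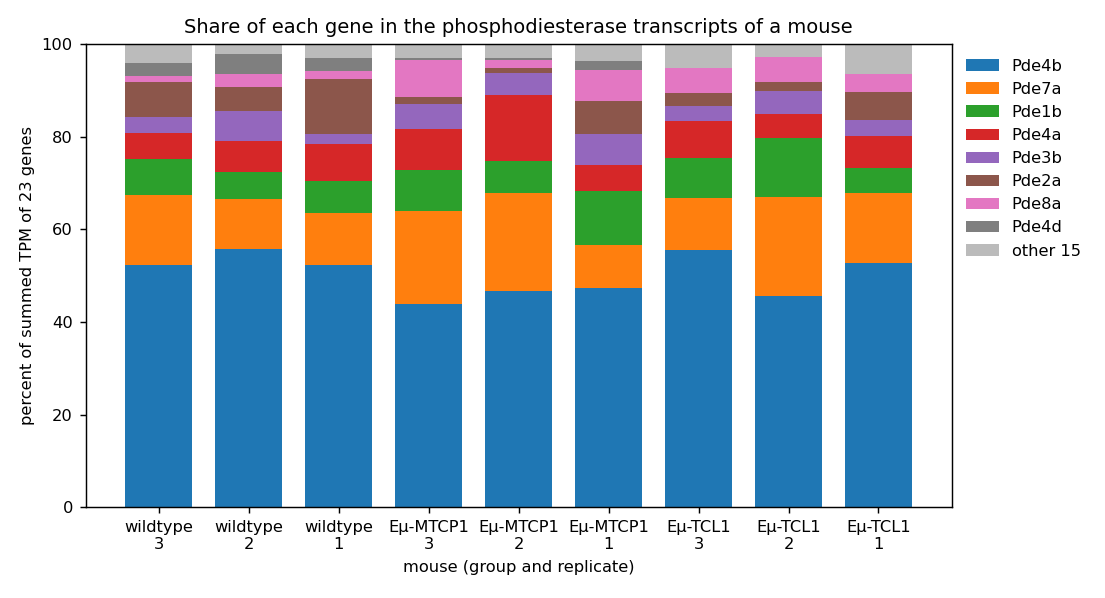
Share of each gene in the summed TPM of 23 phosphodiesterase genes in each mouse, on whole transcripts, stacked to 100%. Pde4b is the largest share in all 9 bars, between 43.9% and 55.7%, and Pde4d is visible mainly in the wildtype bars.

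Genes that make, sense and answer cyclic nucleotides, mostly cAMP, were counted in 8 lists of 86 genes in all, of which 52 were tested. In Eµ-MTCP1 against wildtype 6 were higher and 3 lower, beside 5.48% of all genes higher and 4.01% lower. In Eµ-TCL1 against wildtype 4 were higher and 4 lower, beside 5.03% and 4.13% of all genes. None was called between the leukemias by edgeR. There 5 of the 52 genes had an unadjusted p under 0.05 (edgeR), beside 713 of all 11161 genes. The median log2 fold change of the 52 genes was -0.25 in Eµ-MTCP1 and -0.19 in Eµ-TCL1 against wildtype, beside -0.02 and -0.01 over all genes.

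Among receptors that raise cAMP, 1 was higher in both leukemias. Adora2a, an adenosine receptor, had 89, 49 and 60 coding reads in wildtype replicates 1 to 3, 255, 509 and 358 in Eµ-MTCP1 and 396, 508 and 440 in Eµ-TCL1. It rose in both leukemias, by 2.74 in Eµ-MTCP1 (SE 0.34, adjusted p = 0.00094, edgeR) and by 2.78 in Eµ-TCL1 (SE 0.34, adjusted p = 0.00081, edgeR) on the log2 scale, and in all 30 alternative settings of each. Ptger4, a prostaglandin E2 receptor, was lower in Eµ-TCL1 (log2 fold change -1.25, SE 0.32, adjusted p = 0.035, edgeR), and its value in Eµ-MTCP1 was -0.68 (adjusted p = 0.21, edgeR). Among cyclases, Npr2, a receptor guanylyl cyclase that makes cGMP, was higher in Eµ-MTCP1 (1.98, adjusted p = 0.046, edgeR) and in Eµ-TCL1 (2.74, adjusted p = 0.011, edgeR), and no adenylyl cyclase tested was called.

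Downstream of cAMP, Pkib, an inhibitor of protein kinase A, had 102, 150 and 145 coding reads in wildtype replicates 1 to 3, 2, 17 and 17 in Eµ-MTCP1 and 14, 25 and 31 in Eµ-TCL1. Its log2 fold change was -3.15 in Eµ-MTCP1 (SE 0.60, adjusted p = 0.0094, edgeR) and -2.41 in Eµ-TCL1 (SE 0.57, adjusted p = 0.026, edgeR), and the Eµ-TCL1 call was lost without Eµ-TCL1 replicate 1 or 2 or any one wildtype mouse. Pkig, the related inhibitor, was higher in Eµ-MTCP1 (0.97, adjusted p = 0.035, edgeR) and stood at 0.78 in Eµ-TCL1 (adjusted p = 0.077, edgeR). Of the EPAC genes, Rapgef3 was higher in both leukemias (2.72, adjusted p = 0.045, and 2.97, adjusted p = 0.032, edgeR). Rapgef4 had 134, 164 and 164 coding reads in wildtype, 79, 90 and 82 in Eµ-MTCP1 and 15, 11 and 42 in Eµ-TCL1. It was lower in Eµ-TCL1 (-2.66, SE 0.47, adjusted p = 0.0061, edgeR) in all 30 alternative settings, and its value in Eµ-MTCP1 was -0.57 (adjusted p = 0.44, edgeR). The difference of Rapgef4 between the leukemias, -2.09 (SE 0.46), did not pass (adjusted p = 0.37, edgeR). It passed in 3 of 30 alternative settings, with a lowest adjusted p of 0.0026 (DESeq2 on the whole counts).

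Among anchoring proteins of protein kinase A, Akap17b was higher in both leukemias (1.88, adjusted p = 0.029, and 1.98, adjusted p = 0.023, edgeR) and Akap5 in Eµ-MTCP1 (2.51, adjusted p = 0.049, edgeR). Of 9 genes listed as induced by cAMP, Nr4a2, an orphan nuclear receptor, was lower in Eµ-MTCP1, with 66, 128 and 106 coding reads in wildtype replicates 1 to 3 and 0, 9 and 0 in Eµ-MTCP1 (log2 fold change -4.73, SE 0.99, adjusted p = 0.015, edgeR). This fitted value of Nr4a2 depends on how counts of 0 are handled, and it ran from -10.15 to -3.85 when any one mouse was left out of the coding reads or whole counts, with the lowest value without Eµ-MTCP1 replicate 2, the mouse with 9 coding reads. Its value in Eµ-TCL1, with 10, 18 and 6 reads, was -3.04 (adjusted p = 0.055, edgeR). No G protein gene or CREB family gene tested was called. An unadjusted p under 0.05 (edgeR) was found for 1 of 3 and 1 of 9 genes in Eµ-MTCP1. In Eµ-TCL1 it was found for 0 of 3 and 3 of 9. Over all 11161 genes, such a p was found for 2787 in Eµ-MTCP1 and 2797 in Eµ-TCL1. The calls with an adjusted p over 0.04, for Akap5, Rapgef3 and Npr2 in Eµ-MTCP1, passed in 9, 13 and 10 of 30 alternative settings. Without wildtype replicate 2, or without wildtype replicate 3, the Eµ-MTCP1 calls of Nr4a2, Pkig, Akap17b, Akap5, Rapgef3 and Npr2 were lost, and their highest adjusted p over the alternative settings ran from 0.0951 for Nr4a2 to 0.243 for Npr2 (edgeR). Without wildtype replicate 2 the Eµ-TCL1 calls of Pkib, Rapgef3, Npr2, Akap17b and Ptger4 were lost, and their highest adjusted p ran from 0.0837 for Npr2 to 0.163 for Rapgef3 (edgeR).

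**Figure D5:**
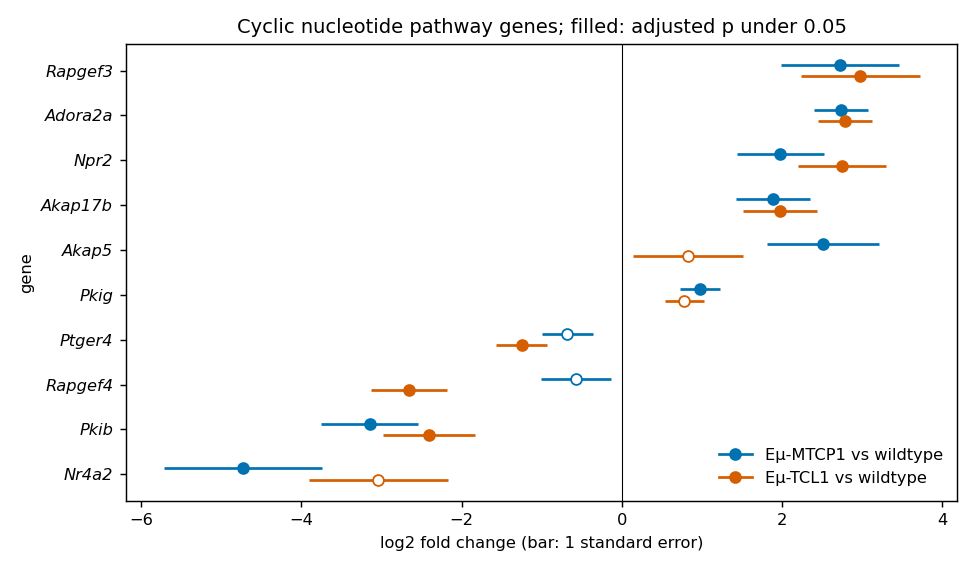
Log2 fold changes with 1 standard error for the 10 cyclic nucleotide pathway genes named in the text, each called in at least 1 comparison with wildtype, with filled points for an adjusted p under 0.05. Rapgef3, Adora2a, Npr2, Akap17b, Akap5 and Pkig lie to the right in both leukemias. Pkib, Nr4a2, Rapgef4 and Ptger4 lie to the left in both.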

How the data were processed

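Splenic B-cell RNA of 9 mice was sequenced by the authors with SMARTer, Nextera XT and TruSeq kits named in the labels. Per the submitters' processing notes, CASAVA 1.8.2, HISAT2 2.0.6, Subread, featureCounts, Salmon 1.0.0 and DESeq2 were used on build GRCm38. Estimated counts and TPM per transcript were deposited by the authors from Salmon on 2 references. In the reference that also held human transgene sequences, 92.2% of annotated transcripts had their coding length, so untranslated regions were largely not counted there. Whole counts per gene were deposited by the authors, once unfiltered and once after their coverage filter, and log2 normalized values were deposited by the authors after DESeq2. A second table of normalized values and the authors' own fold changes and p-values were not used.

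Estimated counts of the coding reference were summed per gene with GENCODE M21, rounded and tested in R 4.3.3 with edgeR 4.0.16 (TMM scaling, default expression filter, quasi-likelihood test, Benjamini-Hochberg adjustment over all genes tested, threshold 0.05). A gene passing it is described as called. DESeq2 1.42.0 and limma 3.58.1 served as alternatives. The steps were tested on simulated data. The reads per library limit the precision of low counts, and floors of 3 reads cover counting error only. Replicates were numbered in accession order, and each library came from a separate mouse. Members and gene lists were chosen with earlier results of these data known. Named pathway genes are those called in a comparison, apart from 1 that is counted but not reported here, and Pde4d's likest genes are the 3 with the smallest distance. The alternative settings using whole counts with a mouse left out, DESeq2 or no filter, and the sum of Pde2a and Gm45837, were added after the values were seen. The 95% intervals are edgeR's estimate and standard error with its residual degrees of freedom.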

Additional observations from a re-analysis of the deposited data

How the results depend on the processing

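No paired analysis was possible because the labels give the mice no shared replicate numbers. Counts of genes called moved by over 1.5 times with DESeq2, to 1645 in Eµ-MTCP1 against wildtype, 1691 in Eµ-TCL1 against wildtype and 68 between the leukemias, beside 1059, 1022 and 1. With DESeq2 on whole counts they were 2268, 2257 and 95, and on whole counts without a filter 1965, 1928 and 111. Between the leukemias the standard reference gave 7, whole counts 4, scaling by library size only 2, no filter 8, leaving out immunoglobulin segments 2, fitting 2 groups only 3 and limma on normalized values 2. Leaving out each mouse in turn, on coding reads or whole counts, gave 524 to 1462, 514 to 1759 and 1 to 7 genes. Of the 8 phosphodiesterases, 0 to 2 were called in Eµ-MTCP1 when a mouse was left out, 2 with DESeq2 on whole counts (Pde4d and Pde2a), and 1 between the leukemias with DESeq2 or without a filter on whole counts (Pde4d).

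Directions changed for genes that were not called. In Eµ-MTCP1 against wildtype, Pde3b was at -0.19 on the standard reference, -0.16 on whole counts, -0.27 with library size only, -0.014 with 2 groups only, -0.16 with DESeq2 on whole counts and -0.20 on whole counts without a filter. Pde7a was at 0.0086 on whole counts and at 0.0027 with DESeq2 on them. Between the leukemias Pde2a was at -0.27 on the standard reference, and Pde7a at 0.045 with library size only, 0.023 with length offsets and 0.016 with limma. Leaving out mice, the log2 fold changes in Eµ-MTCP1 ran from -3.26 to 0.067 for Pde2a, -0.50 to 0.57 for Pde3b and -0.54 to 0.35 for Pde7a. In Eµ-TCL1 they ran from -1.45 to 0.51 for Pde2a, -0.87 to 0.18 for Pde3b and -0.58 to 0.11 for Pde7a. Between the leukemias they ran from -0.65 to 3.02 for Pde2a, -0.56 to 0.0094 for Pde3b, -0.30 to 0.031 for Pde4b, -0.41 to 0.17 for Pde7a and -0.94 to 0.20 for Pde8a. The difference in transcript share was -2.01 points on the standard reference and -0.0612 points with TPM for Pde4b-203, and -8.43 points on the standard reference for Pde7a-202. Leaving out mice gave -0.295 to 0.308 points for Pde4b-203 and -10.7 to 28.5 points for Pde7a-202. The cause was not tested for any of these. Scaling by library size only moved the median of all genes to -0.26 in Eµ-MTCP1 and -0.15 in Eµ-TCL1 against wildtype. Depth limits Pde4d and Pde7b in leukemic mice, at 29 reads or fewer in any table.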

Other observations

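Because the MTCP1 transgene of founder line Z36 lies in Fam168a and Pde2a starts 715056 bases beyond the start of that gene, the 24 genes tested with a start within 1000000 bases of the start of Fam168a were read in the same fit. In Eµ-MTCP1 against wildtype 4 were higher and 1 lower, beside 5.48% of all genes higher and 4.01% lower. In Eµ-TCL1 against wildtype 3 were higher and 1 lower, beside 5.03% and 4.13% of all genes. Arhgef17, a guanine nucleotide exchange factor gene starting 163117 bases away, was at 53.2 ± 8.59 CPM (SD, n = 3) in Eµ-MTCP1, 0.133 ± 0.139 CPM in Eµ-TCL1 and 0.151 ± 0.262 CPM in wildtype, and it was the 1 gene of all tested that edgeR called between the leukemias (log2 fold change of Eµ-TCL1 over Eµ-MTCP1 -8.46, SE 0.75, adjusted p = 0.0041). That fitted value depends on how counts near 0 are handled, as Arhgef17 had 0, 1 and 2 coding reads in Eµ-TCL1 replicates 1 to 3. Relt, a tumor necrosis factor receptor family gene 139212 bases away, was higher in Eµ-MTCP1 (2.92, SE 0.24, adjusted p = 0.00021, edgeR). It was also higher in Eµ-TCL1 (1.37, SE 0.23, adjusted p = 0.0041, edgeR). Ucp2 and Dnajb13 were higher and Fchsd2 was lower in both leukemias. Fam168a itself stood at 0.70 (SE 0.61, adjusted p = 0.51, edgeR) in Eµ-MTCP1, and Clpb, the tested gene beyond Pde2a, at 0.43 (adjusted p = 0.31, edgeR).

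The normalized value deposited for Pde4d in wildtype replicate 3, 8.46, stood above the 7.06 and 7.20 of the other 2 wildtype mice, although its coding reads lay between theirs. In that mouse 1 of the 62 reads was assigned to Pde4d-206, whose coding sequence in the reference is 147 bases, and the coding TPM of Pde4d was 13.4 against 2.08 and 3.47 in the other wildtype mice.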
